A study of Homo sapiens with 24 samples.

Results

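The D cyclins and the CDK inhibitors, the genes that start and brake the passage of a cell from G1 into S phase, were followed across 24 Affymetrix arrays of 3 established human breast cancer cell lines. The set is a list of 10 genes: the D cyclins CCND1, CCND2 and CCND3, the Cip/Kip inhibitors CDKN1A, CDKN1B and CDKN1C, and the INK4 inhibitors CDKN2A, CDKN2B, CDKN2C and CDKN2D. Every probe set that the annotation gives to 1 of these symbols alone was taken. That found 22 probe sets of 9 genes among the 54675 on the array, and CDKN2C was not analysed here. Of the 22, 13 probe sets of the 9 genes passed a filter on low signal and were tested, and 9 lay below it.

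The study asked whether the transporter MCT1 contributes to the glycolytic state of these lines. In the shRNA experiment, SUM149PT cells infected with a lentivirus for an MCT1 shRNA (3 arrays) were compared with SUM149PT cells infected with a lentivirus for a scramble shRNA (3 arrays), both selected in 2 µg/ml puromycin over 5 days. In the inhibitor experiment, HS578T, SUM149PT and SUM159PT cells given the MCT1 inhibitor AZD3965 for 24 hours (3 arrays per line) were compared with cells of the same line given DMSO (3 arrays per line). HS578T was grown in DMEM with serum, and SUM149PT and SUM159PT in F12 medium with serum, insulin, hydrocortisone and EGF. Line and medium therefore cannot be told apart where HS578T is compared with either of the other lines. The labels name 1 MCT1 shRNA, give no AZD3965 concentration and do not say whether the arrays of a group came from separate cultures, so the p-values rest on a spread between arrays that could be technical alone. MCT1 itself was not analysed here, so the knockdown was not checked.

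D cyclins bind and activate CDK4 and CDK6, which phosphorylate the retinoblastoma protein and release E2F factors to transcribe S phase genes. INK4 proteins block CDK4 and CDK6 themselves, whereas Cip/Kip proteins bind cyclin and CDK together and restrain mainly the cyclin E and CDK2 pair. CDKN1B encodes p27, which is classically high in arrested cells, and CDKN1A encodes p21, the best known p53 target. CDKN2A and CDKN2B lie side by side in the genome and are among the loci most often lost in tumours.

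The values are MAS5 signals, a linear brightness per probe set, and a difference is a log2 fold change of the signal plus 16, with its standard error, from 1 limma fit over all 24 arrays. A probe set was called when its Benjamini-Hochberg adjusted p over all 32805 tested probe sets was under 0.05. An offset of 16 understates fold changes of dim probe sets. Member levels are compared between groups of the same probe set, and bright or dim describes raw signal only. The marker sums below add different probe sets, so the brightest weigh most. The arrays had been scaled alike before deposition, with median signals of 49.2 to 67.4, and each array correlated at a mean r of 0.974 to 0.986 with the others of its group across probe sets. One array stood apart: scramble shRNA array 3 had 53.8 times as much actin signal at the 3′ as at the 5′ probe set, where the remaining 23 arrays had 1.2 to 2.14 times, a ratio used to judge the integrity of the RNA, and the differences that rest on the scramble group are given with and without it for the members. Of 10 epithelial markers, 5 lay above the filter, a signal of about 31.7, in HS578T under DMSO, 10 in SUM149PT and 4 in SUM159PT, with summed signals of 7967 to 8337, 78599 to 84725 and 25539 to 28955. Of 9 mesenchymal markers, 9, 7 and 9 lay above it, with sums of 128780 to 136515, 33136 to 36161 and 74250 to 79075. No line was purely of 1 kind: CDH1 averaged 8772 in SUM149PT, against 4.26 in HS578T and 3.53 in SUM159PT, but KRT7 averaged 16571 in SUM159PT and FN1 20367 in SUM149PT. The 3 leukocyte markers summed to 84.5 to 449 in the DMSO groups, most of it CD14 in SUM149PT (mean 389), and the 3 endothelial markers to 124 to 450.2; PTPRC averaged at most 39.0.

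**Figure D1:**
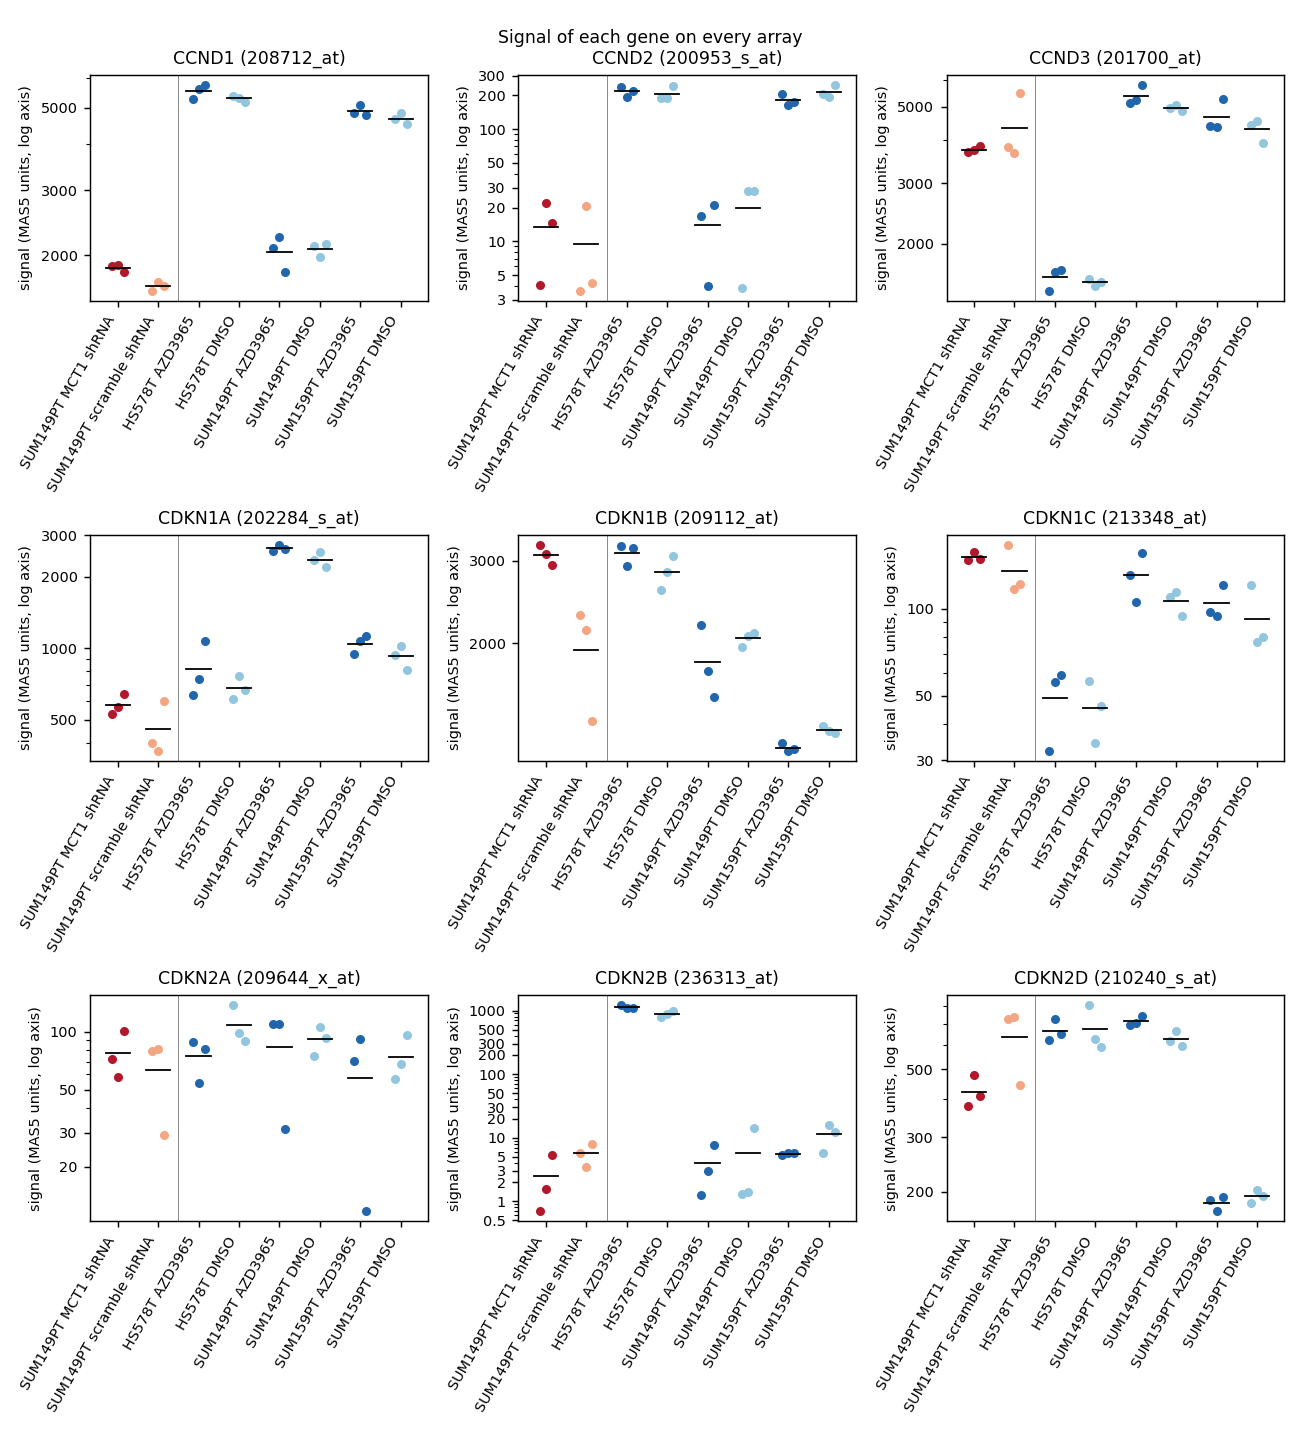
MAS5 signal (log axis) of 1 probe set for each of the 9 genes on all 24 arrays. Points are single arrays and bars are means of 3 arrays; a vertical line parts the shRNA experiment from the inhibitor experiment. CDKN1B shows all 3 MCT1 shRNA arrays above all 3 scramble arrays, and CDKN2B is bright only in the 6 HS578T arrays.

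With MCT1 shRNA, 24 of 28 cell division genes fell in SUM149PT cells, beside 956 of all 14141 tested genes. The cell division list was chosen with earlier results of these data known. Its fall is therefore background to the members and not a separate finding. Among the D cyclins and CDK inhibitors 1 gene rose and 1 fell. CDKN1B was about 1.63-fold higher than with scramble shRNA, and the INK4 inhibitor CDKN2D was lower at 0.687 of the scramble level. No D cyclin passed the test. The count, 2 of 13 tested probe sets, stands beside 10.5% of all tested probe sets called in this comparison, of which 5.6% were called higher and 4.9% lower, so the members were not called at a rate far from that of the array. At an unadjusted p under 0.05 there were 5 of the 13, and 7798 of all 32805. The arrays of the groups did not overlap for 3 of the 13 members and for 25.5% of all tested probe sets. The median difference of the 13 was 0.22, against 0.04 over all tested probe sets.

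CDKN1B (probe set 209112_at) had signals of 3236, 3094 and 2931 in MCT1 shRNA cells, against 2302, 2138 and 1368 in scramble cells. All 3 MCT1 shRNA arrays lay above all 3 scramble arrays, and the lowest value belonged to scramble array 3. The difference was 0.70 ± 0.14 (SE), with an adjusted p of 0.00141 in limma. Without scramble array 3 it was 0.47, with an adjusted p of 0.00478, a smaller difference that was still called. Leaving out any 1 of the 6 arrays kept the call, with differences of 0.47 to 0.84. A fit to these 6 arrays alone gave an adjusted p of 0.101.

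CDKN2D (210240_s_at), the INK4 inhibitor p19, had signals of 381, 479 and 407 in MCT1 shRNA cells, against 725, 739 and 443 in scramble cells. Scramble array 3, the lowest of its group, lay between the MCT1 shRNA arrays, so the groups overlapped. The difference was -0.54 ± 0.15 (SE), with an adjusted p of 0.0218 in limma. Without scramble array 3 it was -0.78, with an adjusted p of 0.000245. The call was kept in 2 of the 6 fits that left out 1 array and lost in the 4 without MCT1 shRNA array 1, MCT1 shRNA array 3, scramble array 1 or scramble array 2, with adjusted p up to 0.102. Fitted to the 6 arrays alone, its adjusted p was 0.233. The fall of an INK4 inhibitor and the rise of a Cip/Kip inhibitor thus ran in opposite directions in the same cells.

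The 2 members called with MCT1 shRNA are shown by the 250 bases before their annotated start in RefSeq (GRCh38.p14), read 5′ to 3′ on the strand of the gene. Capitals mark GGGCGG, the GC box bound by Sp1 family factors, and CCAAT, the box bound by NF-Y, on either strand. The CDKN1B promoter is at chr12:12717118-12717367 on the plus strand, and the CDKN2D promoter at chr19:10568980-10569229 on the minus strand.
CDKN1B: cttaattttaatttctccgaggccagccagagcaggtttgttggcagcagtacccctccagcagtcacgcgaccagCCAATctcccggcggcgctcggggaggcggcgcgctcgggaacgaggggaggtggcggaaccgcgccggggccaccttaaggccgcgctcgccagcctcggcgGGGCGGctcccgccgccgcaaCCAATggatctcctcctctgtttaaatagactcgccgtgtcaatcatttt
CDKN2D: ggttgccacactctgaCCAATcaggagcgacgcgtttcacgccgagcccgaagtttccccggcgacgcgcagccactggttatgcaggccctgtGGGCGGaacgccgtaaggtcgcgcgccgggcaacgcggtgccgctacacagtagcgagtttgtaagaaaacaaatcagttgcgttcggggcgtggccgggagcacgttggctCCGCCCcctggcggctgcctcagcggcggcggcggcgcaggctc
CDKN1B held 1 GC box and 2 CCAAT boxes, and CDKN2D 2 GC boxes and 1 CCAAT box. Among 35116 promoter windows of 250 bases, 42.6% held a GC box and 32% a CCAAT box, searched in the same way. CDKN1B also held 1 match, not capitalised, to TAAACA, the core bound by forkhead factors, on the opposite strand, as did 11% of the windows on either strand. CDKN2D held no TAAACA match in this window. The GC and CCAAT boxes are thus shared by the gene that rose and the gene that fell, and are common in promoters.

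CDKN1A was next in size among the bright members. Its probe set 202284_s_at had signals of 529, 566 and 640.3 in MCT1 shRNA cells, against 400, 369.9 and 602 in scramble cells. Scramble array 3 was the highest scramble array, above 2 of the 3 MCT1 shRNA arrays. The difference of 0.36 ± 0.16 (SE) had an adjusted p of 0.183 in limma and was not called. Leaving that array out gave 0.57, with an adjusted p of 0.0215, and with arrays weighted by their quality it was 0.51, with an adjusted p of 0.0196. For CDKN1A the call therefore depended on how scramble array 3 was treated.

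The third Cip/Kip inhibitor, CDKN1C, known as an imprinted gene of growth control, was dim on these arrays. Its probe set 219534_x_at had signals of 58.5, 59.1 and 76.9 in MCT1 shRNA cells, against 42.5, 33.2 and 52.3 in scramble cells. The groups did not overlap, but the difference of 0.47 ± 0.26 (SE) had an adjusted p of 0.287. The other tested CDKN1C probe sets, 213348_at and 216894_x_at, overlapped between the groups and differed by 0.16 and 0.46, with adjusted p of 0.713 and 0.615. When scramble array 3 was left out, the 3 differences were 0.58, 0.10 and 0.75, and none was called.

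Among the D cyclins, CCND1 (208712_at) had signals of 1867, 1880.1 and 1800.1 in MCT1 shRNA cells, against 1605, 1693 and 1649 in scramble cells. The groups did not overlap, yet the difference was small, 0.16 ± 0.07 (SE), and its adjusted p was 0.154. The second CCND1 probe set, 208711_s_at, overlapped and differed by 0.07 (adjusted p 0.889). These differences were 0.16 (adjusted p 0.224) and -0.05 (adjusted p 0.933) when scramble array 3 was left out. CCND3 (201700_at) had signals of 3692, 3739.6 and 3837 in MCT1 shRNA cells, against 3817, 3682 and 5494 in scramble cells. The high value was scramble array 3. The difference of -0.18 ± 0.11 had an adjusted p of 0.343, and leaving out 1 array moved it between -0.29 and 0.00, reaching 0.00 without scramble array 3.

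CCND2 was near background in SUM149PT cells. Its probe set 200953_s_at reached at most 21.7 in MCT1 shRNA cells and 20.8 in scramble cells, below the signal of the filter. The other tested one, 231259_s_at, had signals of 45.9, 61.0 and 39.4 in MCT1 shRNA cells, against 50.3, 30.1 and 10.4 in scramble cells. Its difference of 0.57 ± 0.27 had an adjusted p of 0.200, and 0.0431 without scramble array 1. It was 0.21 (adjusted p 0.708) without scramble array 3. CDKN2A (209644_x_at) differed by 0.29 ± 0.42 (adjusted p 0.744), and by -0.08 (adjusted p 0.951) without scramble array 3, so it had no settled direction. CDKN2B (236313_at) was far below the signal of the filter in both groups and was not called with or without that array (adjusted p 0.600 and 0.795). None of the 9 probe sets below the filter was called when they were fitted with the whole unfiltered table.

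**Figure D2:**
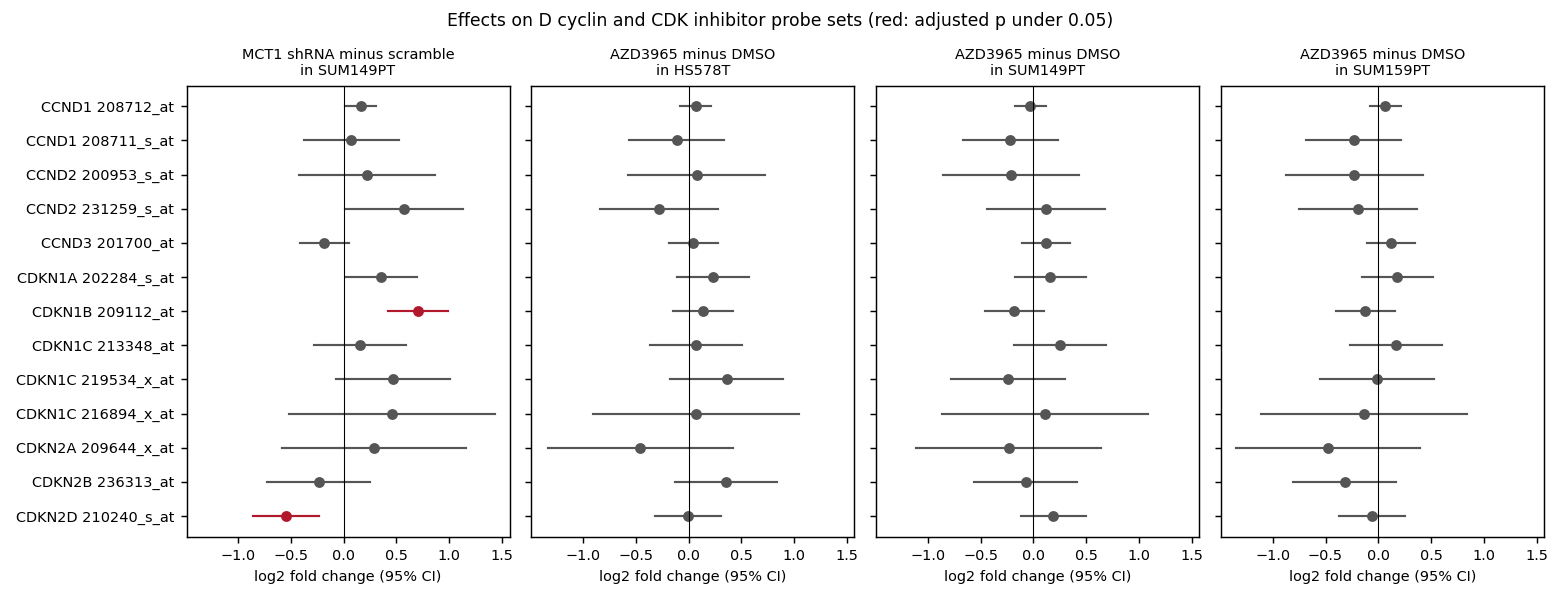
Log2 fold change with its 95% confidence interval for the 13 tested probe sets, in 4 panels: MCT1 shRNA minus scramble in SUM149PT, then AZD3965 minus DMSO in HS578T, SUM149PT and SUM159PT. CDKN2B in SUM149PT and SUM159PT, CCND2 200953_s_at in SUM149PT and CDKN1C 219534_x_at in HS578T lay below the signal of the filter. The means of CDKN1C 216894_x_at in HS578T and of CCND2 231259_s_at with scramble shRNA did too. Only CDKN1B (0.70) and CDKN2D (-0.54) in the shRNA panel are red, which marks an adjusted p under 0.05.

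The other genes of the G1 to S pathway were taken as lists by role, 1 probe set per gene, and are described by counts and medians beside those of all 14141 tested genes, of which 904 were higher and 956 lower with a median difference of -0.00. In RNA from whole cultures, fewer cells expressing a gene and less of its RNA per cell cannot be told apart. Cell division genes had a median of -0.42. Of the 28, 24 fell, 0 rose and 4 did not pass. CCNB2, the mitotic cyclin B2, had signals of 2402, 2471 and 2512 in MCT1 shRNA cells, against 3909, 3773 and 4122 in scramble cells, a difference of -0.67 ± 0.06 with an adjusted p of 2.92e-07. KIF20A, a kinesin of cytokinesis, differed by -0.71 ± 0.07, and TPX2, which activates Aurora A on the spindle, by -0.82 ± 0.10. DLGAP5, BUB1 and KIF11, further spindle and checkpoint genes, fell by 0.57, 0.56 and 0.66 on the log2 scale. Of the 28, 20 fell when scramble array 3 was left out, when the differences were -0.64 for CCNB2, -0.75 for KIF20A and -0.66 for TPX2.

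Of 14 G1 kinases, E cyclins and their cofactors, 2 rose, 4 fell and 8 did not pass, with a median of -0.08. CDK2, the kinase of cyclin E, had signals of 1884, 1790.4 and 1967 in MCT1 shRNA cells, against 2891, 3176 and 2747 in scramble cells, and fell by 0.64 on the log2 scale (SE 0.07, adjusted p 2.64e-06). CDK6, a partner of D cyclins, had signals of 1539, 1740.3 and 1552 in MCT1 shRNA cells, against 2238, 2305 and 2513 in scramble cells, and differed by -0.54 ± 0.09 (adjusted p 0.000409). The MCT1 shRNA arrays lay below the scramble arrays for both kinases, and both were called when scramble array 3 was left out (-0.68 and -0.49). CDK4, the other partner, did not pass, at -0.07 ± 0.08 (adjusted p 0.654).

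The cyclins E differed in direction. CCNE1 had signals of 953, 999 and 1077 in MCT1 shRNA cells, against 705, 599 and 761 in scramble cells, and rose by 0.55 ± 0.10 (adjusted p 0.00132), whereas CCNE2 differed by -0.35 ± 0.10 (adjusted p 0.0257). FBXW7, the ubiquitin ligase subunit that degrades cyclin E, rose by 0.59 ± 0.13 (adjusted p 0.00501), and CKS1B, a cofactor in p27 degradation, fell by 0.35 on the log2 scale (adjusted p 0.0189). SKP2, the ligase subunit for p27, did not pass, at -0.28 ± 0.12 (adjusted p 0.136). The list without that array had 2 genes higher and 2 lower: CCNE2 (adjusted p 0.118) and CKS1B (0.121) were no longer called.

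Pocket proteins, E2F and DP factors did not pass, apart from 1 of 17, with a median of -0.03. TFDP2, a dimerisation partner of E2F, differed by -0.31 ± 0.09 (adjusted p 0.0363), and without scramble array 3 it was not called (0.165), leaving 0 of 17. RB1 differed by -0.19 ± 0.16 (adjusted p 0.542) and E2F1 by 0.29 ± 0.20 (adjusted p 0.413), and neither was called without that array (-0.26 and 0.29).

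Targets of p53, the usual activator of CDKN1A, showed 1 rise and 4 falls among 19 tested of 22 listed, with a median of 0.02. SESN2, a stress-induced sestrin that p53 and ATF4 both activate, had signals of 371, 449.8 and 429.6 in MCT1 shRNA cells, against 132, 74.8 and 187 in scramble cells, and rose by 1.63 ± 0.20 (adjusted p 9.99e-06). SESN1, another sestrin, FAS, a death receptor, DDB2, which recognises damaged DNA, and POLH, a polymerase that copies past lesions, fell by 0.73, 0.48, 0.56 and 0.37 on the log2 scale. MDM2, the p53 ligase and a standard p53 readout, differed by -0.13 ± 0.16 (adjusted p 0.690). Without scramble array 3, 2 rose and 3 fell: TP53INP1 was added at an adjusted p of 0.0457, and DDB2 was not called (0.0766).

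Of 18 tested regulators known to act on D cyclin or CDK inhibitor genes, 4 rose and 2 fell, with a median of 0.08. KLF4, a zinc finger factor known to activate CDKN1A and CDKN1B, had signals of 2070, 2180.5 and 1959 in MCT1 shRNA cells, against 308, 470.5 and 369 in scramble cells, and rose by 2.41 ± 0.11 (adjusted p 9.91e-13). The lowest MCT1 shRNA array was above every scramble array by a wide margin. MXD1, a repressor that competes with MYC for MAX, rose by 0.71 ± 0.12, GATA3, a luminal transcription factor, by 0.60 ± 0.12 and FOXO3, a forkhead factor known to activate CDKN1B, by 0.37 ± 0.09. SMAD3, a mediator of TGF-β signals that induce CDKN2B, fell by 0.90 on the log2 scale, and ZBTB17, which recruits MYC to CDKN2B and CDKN1A, by 0.37. Without scramble array 3 the 4 rises were kept (FOXO3 at 0.22, adjusted p 0.0494) and SMAD3 fell, while ZBTB17 was not called (0.135).

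**Figure D3:**
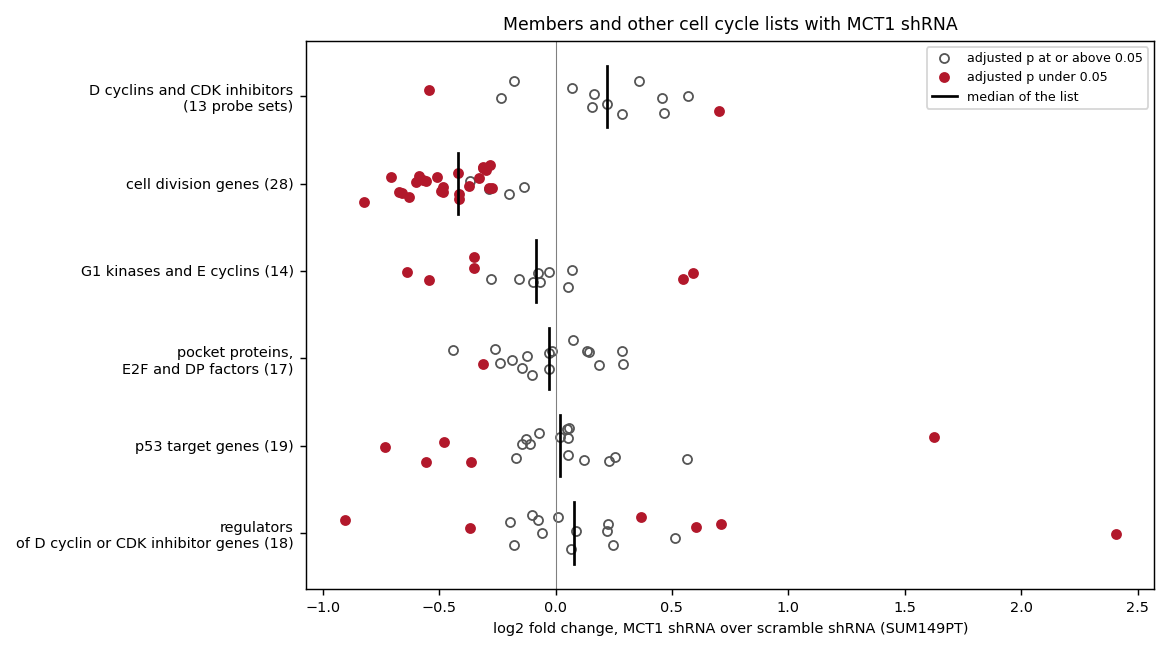
Log2 fold change of MCT1 shRNA over scramble shRNA in SUM149PT for the 13 tested probe sets of D cyclins and CDK inhibitors (top row) and for 5 lists of other genes, 1 probe set per gene. Filled red points have an adjusted p under 0.05 and black bars are medians; cell division genes lie left of 0 (median -0.42), and KLF4 is the point farthest right at 2.41.

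Median centring of the arrays lowered every shRNA difference by 0.113, and it changed the split of called probe sets over the whole array to 735 higher and 1879 lower, beside 1838 higher and 1606 lower on the deposited scale. The directions of CDKN1B (0.59, adjusted p 0.0229) and CDKN2D (-0.65, adjusted p 0.0132) and both calls stood on that scale too.

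**Figure D4:**
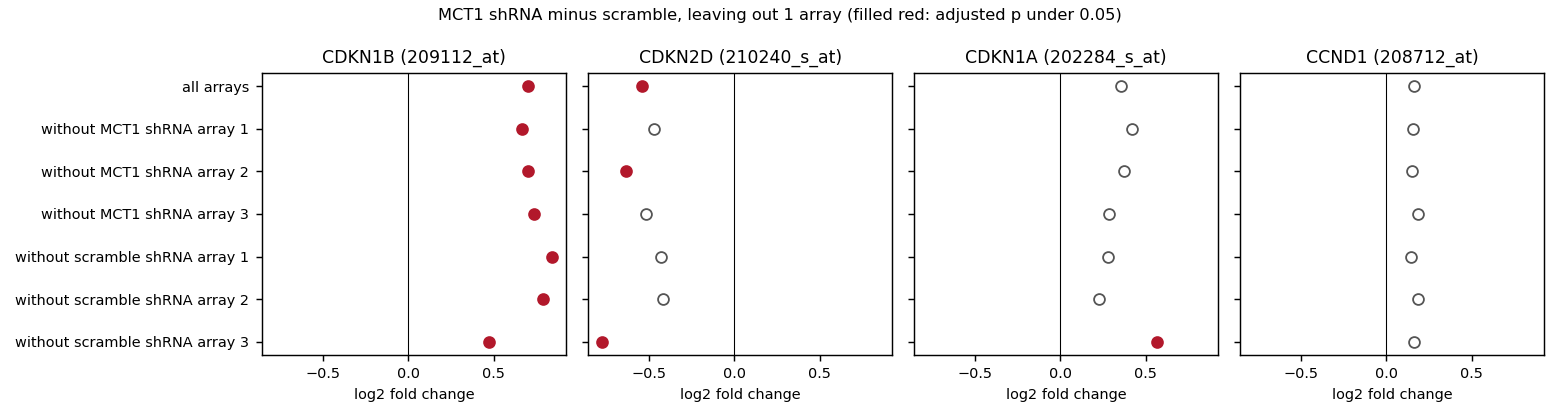
Log2 fold change of MCT1 shRNA over scramble shRNA for 4 genes with all arrays and with each of the 6 arrays left out in turn; filled red points have an adjusted p under 0.05. CDKN1B stays between 0.47 and 0.84 and filled throughout, CDKN2D is filled in 2 of 6 fits, and CDKN1A is filled only without scramble array 3.

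With AZD3965 for 24 hours, no D cyclin or CDK inhibitor passed the test in any line. The counts were 0 of 13 in HS578T, 0 in SUM149PT and 0 in SUM159PT by limma, with 0 also at an unadjusted p under 0.05 in each line. Over the whole array 0.137% of tested probe sets were called in HS578T, 0.0122% in SUM149PT and 0% in SUM159PT, and 2228, 4482 and 1885 had an unadjusted p under 0.05. Averaged over the 3 lines 0 of the 13 were called, beside 0.0183% of all, and none had an unadjusted p under 0.05, against 4004 of all. The arrays of the groups did not overlap for 2 members in HS578T (17.6% of all tested probe sets), 3 in SUM149PT (17.9%) and 1 in SUM159PT (11.6%). The 95% confidence intervals of the members had a median half-width of 0.449 in a line and 0.259 for the average. With median centring, which raised HS578T differences by 0.159, the called probe sets there were 41 higher and 1 lower, beside 33 higher and 12 lower on the deposited scale, and again 0 members.

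CDKN2B separated the groups in HS578T by a tested and an untested probe set. Its probe set 236313_at had signals of 1214, 1093 and 1105 in AZD3965 cells, against 788, 877 and 999 in DMSO cells, and the dimmer 207530_s_at had 105, 106 and 100.3 in AZD3965 cells, against 71.8, 76.6 and 50.6 in DMSO cells. Both probe sets were higher in all 3 AZD3965 arrays. The differences, 0.36 ± 0.23 with an adjusted p of 0.862, and 0.56 with an adjusted p of 0.834 in the fit without the filter, were not called. In SUM149PT and SUM159PT 236313_at lay below the signal of the filter with and without AZD3965.

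CDKN1A had positive differences in all 3 lines, 0.23 in HS578T, 0.16 in SUM149PT and 0.18 in SUM159PT. In SUM149PT its signals were 2576, 2724 and 2623 in AZD3965 cells, against 2362, 2537 and 2196 in DMSO cells, without overlap. The average, 0.19 ± 0.09 with a 95% confidence interval of -0.01 to 0.38, had an adjusted p of 0.421. CDKN1B had signals of 1227, 1181 and 1194 in SUM159PT cells given AZD3965, against 1335, 1301 and 1293 given DMSO, also without overlap, a difference of -0.12 ± 0.14 (adjusted p 0.939). In SUM149PT it had 2183, 1747 and 1537 in AZD3965 cells, against 1969, 2069 and 2109 in DMSO cells, and differed by -0.18 ± 0.14 (adjusted p 0.602). CCND3 and CDKN2D in SUM149PT and CDKN2A in HS578T were the other members without overlap, with differences of 0.12, 0.19 and -0.45 and adjusted p of 0.703, 0.633 and 0.941.

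The 208712_at probe set of CCND1 had the narrowest intervals of the 13. Its difference was 0.07 in HS578T (95% confidence interval -0.08 to 0.21), -0.03 in SUM149PT (-0.17 to 0.12) and 0.07 in SUM159PT (-0.08 to 0.21). None of the genes in the 5 lists was called in any line, cell division genes included, whose medians were -0.12 in HS578T, -0.03 in SUM149PT and -0.00 in SUM159PT. In SUM149PT, CCNE2 (-0.32 ± 0.10), RB1 (-0.48 ± 0.16), CDK6 (-0.25 ± 0.09), CDK4 (0.22 ± 0.08), CCNE1 (0.29 ± 0.10) and E2F1 (0.40 ± 0.20) had adjusted p of 0.203 to 0.391. An F test comparing the AZD3965 effects of the 3 lines called 0 of the 13 members (0 at an unadjusted p under 0.05), beside 0.0518% of all tested probe sets.

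The shRNA effect and the AZD3965 effect in SUM149PT were compared directly, as a difference of differences over 4 groups that share no array. It was called for 2 of 13 members, beside 5.12% of all tested probe sets. For CDKN1B the shRNA effect exceeded the AZD3965 effect by 0.88 ± 0.19 (adjusted p 0.00814), and for CDKN2D it was lower by -0.73 ± 0.21 (adjusted p 0.0467). The CDKN1B result was called in all 12 fits that left out 1 array, at 0.65 to 1.03, and had an adjusted p of 0.0575 with median centring. The CDKN2D result was called in 2 of 12 such fits (without MCT1 shRNA array 2 and without scramble array 3) and lost in the other 10, with adjusted p up to 0.117. The same difference was called for 15 of the 28 cell division genes, all lower, with a median of -0.37, and for 4 higher and 1 lower of the 18 regulators. Over all 14141 genes it was called higher for 489 and lower for 501. Leaving out scramble array 3 gave 16 lower cell division genes, again 4 higher and 1 lower regulators, and 472 higher and 450 lower over all genes. The experiments also differed in duration and in the lentivirus and puromycin, which both shRNA groups had, and these cannot be told apart from the means of acting on MCT1.

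More members differed between the lines than with any treatment. Under DMSO the F test called 10 of the 13 tested probe sets, of 8 genes, beside 67.8% of all tested probe sets. HS578T differed from SUM149PT in 9 of 13 (5 higher, 4 lower), beside 55.3% of all, and from SUM159PT in 9 of 13 (5 higher, 4 lower), beside 48.1%. SUM149PT differed from SUM159PT in 6 of 13 (3 higher, 3 lower), beside 50.3%. These shares of members were not far from those of the array. Of the 9 probe sets below the filter, 3 were called in the F test of a fit to the whole unfiltered table: 200951_s_at of CCND2 (adjusted p 0.0107), 1562028_at of CCND3 (0.0209) and 207530_s_at of CDKN2B (1.71e-05).

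CDKN2B, the INK4 inhibitor p15, was bright in HS578T alone. Its 236313_at signals were 788, 877 and 999 in HS578T, against 1.28, 1.41 and 14.2 in SUM149PT and 5.64, 16 and 12.2 in SUM159PT. All arrays of SUM149PT and SUM159PT lay below the signal of the filter, which this probe set passed through its HS578T arrays, so only a bound can be given. Set against the filter signal of 31.7, the geometric mean of HS578T was at least 27.9-fold higher than SUM149PT and SUM159PT (adjusted p 3.07e-15 and 1.97e-14 in the fit), and these 2 lines were both below it. The 250 bases before the CDKN2B start in RefSeq (GRCh38.p14), at chr9:22009306-22009555 on the minus strand, are shown for the gene with this contrast between lines, with GGGCGG matches on either strand in capitals.
CDKN2B: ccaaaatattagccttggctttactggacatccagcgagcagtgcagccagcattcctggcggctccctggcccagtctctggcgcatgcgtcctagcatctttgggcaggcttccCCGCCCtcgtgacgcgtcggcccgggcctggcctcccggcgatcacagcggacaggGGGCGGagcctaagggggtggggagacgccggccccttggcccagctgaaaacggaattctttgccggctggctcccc
This window held 2 GC boxes and no CCAAT box. Its neighbour CDKN2A, which encodes p16 and p14ARF, was dim in every group. Its brightest probe set, 209644_x_at, ran from 11.7 to 137 over all 24 arrays, and the lines did not differ in the F test (adjusted p 0.589).

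CDKN2D was high in HS578T and SUM149PT and low in SUM159PT. Its signals were 805, 628 and 590.2 in HS578T and 616, 664 and 596 in SUM149PT, against 184, 202 and 194 in SUM159PT. HS578T exceeded SUM159PT by 1.71 ± 0.15 and SUM149PT exceeded it by 1.62 ± 0.15 on the log2 scale (adjusted p 1.56e-09 and 3.39e-09). HS578T and SUM149PT did not differ beyond their spread (0.09 ± 0.15, adjusted p 0.629).

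The Cip/Kip inhibitors ran in different orders. CDKN1B was highest in HS578T (2592, 2831 and 3066), lower in SUM149PT (1969, 2069 and 2109) and lowest in SUM159PT (1335, 1301 and 1293), without overlap between any pair. HS578T exceeded SUM149PT by 0.46 ± 0.14 (adjusted p 0.00587) and SUM159PT by 1.10 ± 0.14 (adjusted p 3.63e-07) on the log2 scale, and SUM149PT exceeded SUM159PT by 0.64 ± 0.14 (adjusted p 0.000360). With median centring, which moved it by -0.104, the first of these was 0.36 (adjusted p 0.0638).

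CDKN1A had the reverse extreme. Its signals were 611, 763 and 668 in HS578T, against 2362, 2537 and 2196 in SUM149PT and 939.5, 1021 and 814 in SUM159PT. Under DMSO SUM149PT stood above both other lines, HS578T minus SUM149PT being -1.78 ± 0.16 (adjusted p 2.13e-09) and SUM149PT minus SUM159PT 1.34 ± 0.16 (adjusted p 2.54e-07). This order held only for the DMSO control of SUM149PT. With scramble shRNA, in the other experiment, SUM149PT averaged 457, below the DMSO means of HS578T (680) and SUM159PT (925). HS578T minus SUM159PT was -0.43 ± 0.16 (adjusted p 0.0317), a call kept in 2 of 6 fits that left out 1 array, with adjusted p up to 0.122. CDKN1C was lowest in HS578T. Its 213348_at signals were 56.2, 34.5 and 46.1 in HS578T, against 109.7, 114 and 94.8 in SUM149PT and 120.5, 76.6 and 80.0 in SUM159PT. HS578T differed from SUM149PT by -1.0 ± 0.21 and from SUM159PT by -0.81 ± 0.21 (adjusted p 0.000272 and 0.00261), and 219534_x_at by -1.63 and -1.25 (adjusted p 9.33e-06 and 0.000297). The HS578T signals of 219534_x_at were 9.74, 10.4 and 5.90, below the signal of the filter, which it passed through the other lines. The size of its differences is therefore not settled. The third tested probe set, 216894_x_at, was not called in the F test (adjusted p 0.324).

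Each line had its own mix of D cyclins. CCND1 (208712_at) had signals of 5383, 5329.8 and 5191 in HS578T, against 2122, 1979.9 and 2140.0 in SUM149PT and 4678, 4840.3 and 4509 in SUM159PT. HS578T exceeded SUM149PT by 1.34 ± 0.07 on the log2 scale (adjusted p 1.12e-13), and SUM149PT minus SUM159PT was -1.16 ± 0.07 (adjusted p 2.14e-12). HS578T exceeded SUM159PT by 0.18 ± 0.07 (adjusted p 0.0381), a call kept in 1 of 6 fits that left out 1 array and lost with median centring (0.09, adjusted p 0.563), without the filter (0.0583) and without the mean-variance trend (0.0679). The second CCND1 probe set, 208711_s_at, gave 2.28, -1.55 and 0.73 for the same 3 differences.

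CCND2 (200953_s_at) had signals of 189, 189 and 240.0 in HS578T, against 3.81, 28.0 and 27.8 in SUM149PT and 208, 191 and 248 in SUM159PT. All SUM149PT arrays lay below the signal of the filter, which this probe set passed through the other lines. Set against that signal in the same way, HS578T was at least 6.45-fold and SUM159PT at least 6.75-fold higher than SUM149PT (adjusted p 8.39e-08 and 7.62e-08 in the fit), whereas HS578T and SUM159PT did not differ beyond their spread (-0.06 ± 0.31, adjusted p 0.895). The dim CCND2 probe set 231259_s_at did not follow this pattern, with no difference called between lines (F test, adjusted p 0.978). CCND3 (201700_at) ran the other way, with 1576, 1513 and 1547 in HS578T, against 4949.7, 5067 and 4863 in SUM149PT and 4425, 4556 and 3919 in SUM159PT. HS578T minus SUM149PT was -1.67 ± 0.11 and HS578T minus SUM159PT -1.46 ± 0.11 (adjusted p 6.49e-12 and 1.14e-10). SUM149PT and SUM159PT did not overlap, but their difference of 0.21 ± 0.11 was not called (adjusted p 0.124).

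Among the kinases and targets of the pathway under DMSO, RB1 was lower in SUM149PT, at 1.30 ± 0.16 for HS578T minus SUM149PT (adjusted p 4.06e-07) and -1.52 ± 0.16 for SUM149PT minus SUM159PT (adjusted p 4.46e-08). CDK6 was highest in SUM149PT, by 0.88 ± 0.09 over SUM159PT (adjusted p 2.50e-08), and HS578T minus SUM149PT was -0.46 ± 0.09 (adjusted p 0.000161). That CDK6 order held only for the DMSO control. With scramble shRNA, in the other experiment, SUM149PT averaged 2352, below the DMSO means of HS578T (4220) and SUM159PT (3152). CCNE1 was highest in SUM149PT under DMSO, with HS578T minus SUM149PT at -0.68 ± 0.10 (adjusted p 5.79e-06) and SUM149PT minus SUM159PT at 0.43 ± 0.10 (adjusted p 0.00141). CDK4 was lower in SUM149PT than in SUM159PT (-0.30 ± 0.08, adjusted p 0.00203). CCNE2 was lower in SUM159PT than in both other lines, HS578T minus SUM159PT being 0.37 ± 0.10 (adjusted p 0.00335) and SUM149PT minus SUM159PT 0.47 ± 0.10 (adjusted p 0.000336). E2F1 was higher in SUM149PT than in SUM159PT (0.57 ± 0.20, adjusted p 0.0201).

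Genes with patterns most like those of the members over the 24 arrays were ranked by Pearson r of log2 values. The nearest gene was ARMCX2 for CDKN2B (r = 0.996), FRMD4A for CCND1 (0.993), TEAD4 for CCND3 (0.989), DHX40 for CCND2 (0.980), FLII for CDKN2D (0.969), GDAP1 for CDKN1B (0.952), FPR1 for CDKN1A (0.948), RPP25L for CDKN1C (0.941) and CACNG2 for CDKN2A (0.754). These correlations are descriptions over arrays of 3 lines that are not independent of each other, and the dim CDKN2A had the weakest.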

How the data were processed

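Total RNA of each sample was labelled with biotin and hybridised to 1 Affymetrix array, 24 in all, per the labels' protocols. The authors deposited linear signal intensity made with MAS5, which the submitters' processing notes name without a version. With 2% trimmed from both ends, the mean of each array was 500.1, so these values were already scaled. No further normalization was applied. Of 54675 probe sets, 41097 had 1 gene symbol, 1801 several and 11777 none. Of the single symbols, 41043 were looked up through RefSeq gene IDs, and how many changed was not counted. The log2 of the signal plus 16 was fitted for the 32805 probe sets whose mean reached the 40th percentile (5.58). One model of 8 group means was fitted with limma 3.58.1 in R 4.3.3 (lmFit, eBayes with a mean-variance trend, 16 residual and 5.93 prior degrees of freedom, two-sided). The number of arrays limits the precision.

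The members and the gene lists were chosen with earlier results of these data known. Named genes were all members, up to 6 called genes of smallest p per list, the most similar gene per member, and CDK4, CDK6, CCNE1, CCNE2, RB1 and E2F1 throughout; SKP2, MDM2 and TP53INP1 were named after their values were seen. The gene with the highest mean probe set stood for each list entry. Same-numbered arrays of treated and control groups had correlated deviations of -0.128 to 0.0366, 0 of 12 above 0.1. No clear pairing by number was seen, but deviations within groups of 3 arrays could miss it. In SUM149PT with AZD3965 and DMSO each array correlated best with its own number, at r of 0.0217 to 0.0320. On simulated data for the shRNA contrast (32805 probe sets, 200 changed), 29% of 1.5-fold and 58% of 2-fold changes were recovered and 4.40% of calls were false. The simulation had independent noise and no outlying array, and the real contrast called 3444 probe sets. These rates therefore may not hold for the real contrast. The alternatives tried were median centring, quantile normalization, other filters and offsets, 1 probe set per gene, array weights, no trend, a replicate block, only the arrays compared, and each array left out; list counts without scramble array 3 were added after seeing the data. Lower bounds on a fold set a dim line at the filter signal.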

Additional observations from a re-analysis of the deposited data

Results flagged for a closer look

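The effect of MCT1 shRNA and that of AZD3965 in SUM149PT differed in a direct test for 2 genes. For CDKN1B the shRNA effect minus the AZD3965 effect was 0.88 on the log2 scale (limma, adjusted p 0.00814), with differences of 0.70 for MCT1 shRNA over scramble and -0.18 for AZD3965 over DMSO. For CDKN2D it was -0.73 (adjusted p 0.0467), with differences of -0.54 and 0.19. Without scramble shRNA array 3, whose actin ratio stood apart, the values were 0.65 for CDKN1B and -0.96 for CDKN2D.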

How the results depend on the processing

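Alternatives other than leaving out arrays left 1268 values for single probe sets on the same side of the threshold. With these, 4 values newly passed it and 12 no longer did. Leaving out 1 array gave 1026, 3 and 24. No called value changed sign. Some values that were not called did, and CDKN2A with MCT1 shRNA ran from -0.08 to 0.48 with 1 array left out. The count of members called with MCT1 shRNA, 2, became 0 in a fit to only the arrays compared, which has fewer degrees of freedom, and ran from 1 to 3 with 1 array left out. The count for the F test between lines, 10, was 6 with the filter at the 60th percentile, where fewer probe sets were tested and every member probe set still tested was called. The count for the shRNA effect minus the AZD3965 effect, 2, was 0 with median centring, 1 with an offset of 1, without a filter and without the mean-variance trend, and 1 to 2 with 1 array left out; the cause was not tested. With a replicate block this count was 1 (CDKN2D at an adjusted p of 0.0830), and the labels do not say that the numbers pair the arrays. In the same block fit CDKN1B and CDKN2D kept their shRNA calls (adjusted p 0.00423 and 0.0429), and CCND3 in SUM149PT minus SUM159PT (0.0253) and CDKN1C 216894_x_at in HS578T minus SUM149PT (0.0474) newly passed. With 3 arrays a group, dim members such as CDKN2A tended to have wider intervals, but not every dim probe set did. The SE of CDKN1C 213348_at was 0.210, beside 0.216 for the brighter CCND1 208711_s_at.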

Other observations

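CDKN1A differed between the control groups of the same line. Its signals were 400, 369.9 and 602 in SUM149PT cells with scramble shRNA, against 2362, 2537 and 2196 in SUM149PT cells given DMSO, a difference of -2.36 on the log2 scale. Of all tested probe sets, 0.265% had a larger difference in either direction, and 5.72% differed at least 2-fold. The 2 groups come from separate experiments, and vector, selection and experiment cannot be told apart, so no test was made. CDKN1B (-0.12) and CDKN2D (-0.01) differed little between the same groups.

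MTAP, annotated near CDKN2A and CDKN2B in RefSeq and picked after its values were seen, had a pattern like that of CDKN2B. Its probe set 211363_s_at had signals of 432, 417 and 399 in HS578T, against 5.86, 4.42 and 3.72 in SUM149PT and 14.0, 2.63 and 4.02 in SUM159PT, all under DMSO. The other tested MTAP probe set, 211364_at, did not follow this, with means of 74.3 in HS578T, 46.0 in SUM149PT and 66.6 in SUM159PT. Of those that did not pass the filter, 231984_at did, with means of 566, 2.22 and 2.19 in the same order. So did 216685_s_at (260, 17.4 and 2.77) and 204956_at (156, 14.6 and 15.9). The last, 217134_at, did not, with means of 8.48, 11.3 and 8.79.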
